A study of Mus musculus with 84 samples.

Results

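Dppa2, Dppa3, Dppa4, Dppa5a, Utf1, Fbxo15, Eras, Lin28a, Zfp296 and Tcl1 are 10 genes known for transcripts that are abundant in mouse embryonic stem cells (ESCs) and scarce in differentiated cells. They were found by symbol in a table of raw read counts for 18909 genes, and all 10 were present. The wells of each replicate were summed, and each gene was followed over the reprogramming of mouse embryonic fibroblasts (MEFs) and set against its level in ESCs. The study asked whether Smad3CA, a constitutively active form of the TGF-beta signal transducer SMAD3, alters reprogramming by c-Myc, Klf4, Oct4 and Sox2 (MKOS). RNA was read with STRT, a method that counts transcripts from their 5′ ends. The reprogramming cells were TNG MKOS MEFs of 129 background from chimeric embryos, plated among wild-type MEFs. They carried a doxycycline-inducible MKOS cassette joined to mOrange in the Sp3 locus, a CAG-driven rtTA and a Nanog-GFP reporter that disrupts 1 Nanog allele. They were infected with a retrovirus for the blue fluorescent protein BFP (Cont) or for Smad3CA (+Sm3CA). Culture was in ESC medium with LIF, vitamin C and 300 ng/ml doxycycline, and cells sorted for mOrange were collected on day 3, day 6, day 8 and day 10. The MEFs were wild-type 129 cells grown with FGF2 and heparin and without LIF, so they differed from the day 3 cells in genotype, virus and medium as well as in time. The ESCs were the TNG MKOS line, a single line. Each of the 10 groups had 3 biological replicates, which made 30 libraries of 1008596 to 2296059 reads.

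ESC-specific transcripts of this kind are used as readouts of late reprogramming, because they come from loci that are silent in fibroblasts. DPPA2 and DPPA4 are paired chromatin proteins of pluripotent cells, DPPA3 (Stella) protects DNA methylation in the early embryo, and DPPA5A is an RNA-binding protein with a KH domain. UTF1 is a chromatin-bound transcription factor, ZFP296 a zinc finger protein, LIN28A an RNA-binding protein that blocks let-7 maturation, FBXO15 an F-box protein, ERAS a Ras-like GTPase and TCL1 a coactivator of AKT kinases.

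The genes were first detected at different times. Zfp296 and Lin28a were detected in every reprogramming library from day 3, and Dppa5a had a low background in every group, MEFs included. Utf1 was called on day 3 in +Sm3CA alone, on few reads, and Tcl1 was called on day 8 in both series. Most of the Cont reads of Tcl1 on day 8 were in replicate 3, and Fbxo15 had a few reads on that day. Dppa2, Dppa3, Dppa4, Dppa5a, Fbxo15 and Tcl1 were called higher from day 8 to day 10 in both series. DESeq2 called 3 members in each series for this step, and the Cont count was 3 to 6 when single libraries were left out. Eras rose in that interval with Smad3CA, and Utf1 stayed near the detection limit through day 10. On day 10 all 9 members tested had a positive fold change of +Sm3CA over Cont, as did 49.6% of all genes. Dppa3 and Dppa5a passed the test, where 0.83% of all genes were called higher. The count of members called was 0 with a second method, DESeq2, and 0 to 2 when single libraries were left out. Dppa2, Dppa3, Dppa4, Fbxo15, Tcl1 and Eras passed the filter on low counts through day 10 libraries. In these bulk samples a smaller share of cells that express a gene and less RNA per cell cannot be told apart.

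One of the ESC libraries stood apart, which touches every value given as a share of ESCs. ESC replicate 2 had 370 normalized counts of the glycolytic gene Gapdh, against 14209 and 11889 in replicates 1 and 3, and 21.7 of Nanog against 299 and 285. Its log2 counts correlated with replicates 1 and 3 at r = 0.890 and 0.875 over 10401 genes, whereas replicates 1 and 3 correlated at 0.946 and pairs in the other groups at 0.921 to 0.963. Of the 10 members, 7 were lower in replicate 2 than in both other ESC libraries and 3 (Dppa3, Dppa5a and Lin28a) were higher. Zfp296 stood at 29.3% of the mean of replicates 1 and 3, Dppa2 at 30.3% and Fbxo15 at 59.4%, while Dppa3 stood at 219% and Dppa5a at 193%. Shares of the ESC level are therefore given with all 3 ESC libraries and without replicate 2.

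**Figure D1:**
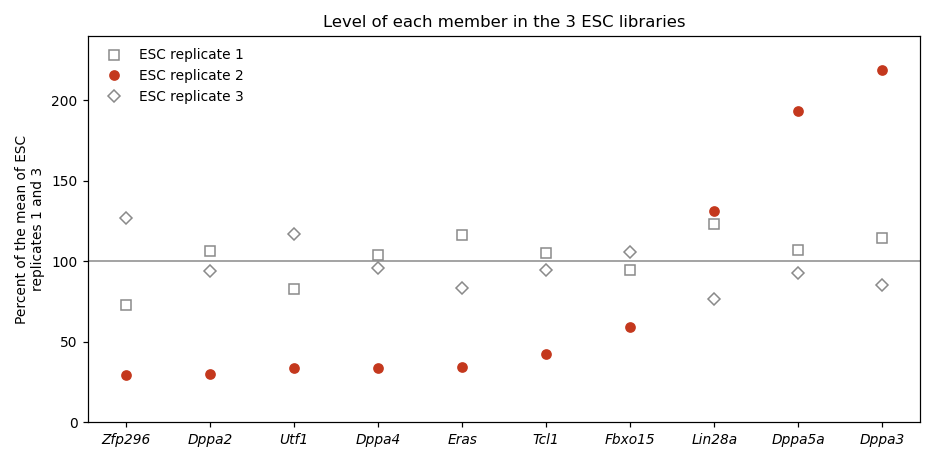
Level of each of the 10 genes in the 3 ESC libraries (normalized counts as a percent of the mean of ESC replicates 1 and 3, linear axis). Filled red circles are replicate 2, which lies below both other libraries for 7 genes, down to 29.3% for Zfp296, and above them for Lin28a, Dppa5a and Dppa3, up to 219%.

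The transgene could be read in its arm. Smad3, whose counts combine the endogenous gene and the vector, had 184, 89.0 and 126 normalized counts in the +Sm3CA libraries of day 3 and 18.7, 5.19 and 8.94 in the Cont libraries. On day 10 it had 47.7, 32.8 and 44.3 against 14.8, 21.5 and 25.4, so the libraries of the arms did not overlap on either day. In ESCs all 10 members had more than 3 reads in every library. In MEFs 9 of 10 were undetected, meaning 3 reads or fewer in each library, and Dppa5a alone had more, with 6, 8 and 8 reads. ESCs were higher than MEFs for 10 of 10 members by edgeR's quasi-likelihood test, where 23.5% of the 8798 genes tested were higher and 28.8% lower, and 10 of 10 were called when any of the 6 libraries was left out. The members were chosen as genes abundant in ESCs, and 9 were undetected in MEFs. Those 9 entered the test through the ESC libraries, so this result was set in advance and is no support for the list. Since most members had no MEF signal, the ratios are bounds. ESC levels were at least 176-fold higher for Fbxo15, 145-fold for Tcl1, 61.7-fold for Eras, 28.6-fold for Utf1 and 24.3-fold for Lin28a, taking 3 reads per library as the floor. Dppa5a, with a measurable MEF level of 7.42 ± 1.10 normalized counts (SD, n = 3), was 4423-fold higher in ESCs, where it took 1.44%, 2.43% and 1.36% of all reads. GENCODE annotates 2 unprocessed pseudogenes of Dppa5a on the same chromosome and 1 transcribed processed pseudogene of Dppa3, and reads that match such copies could be split or lost in counting.

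**Figure D2:**
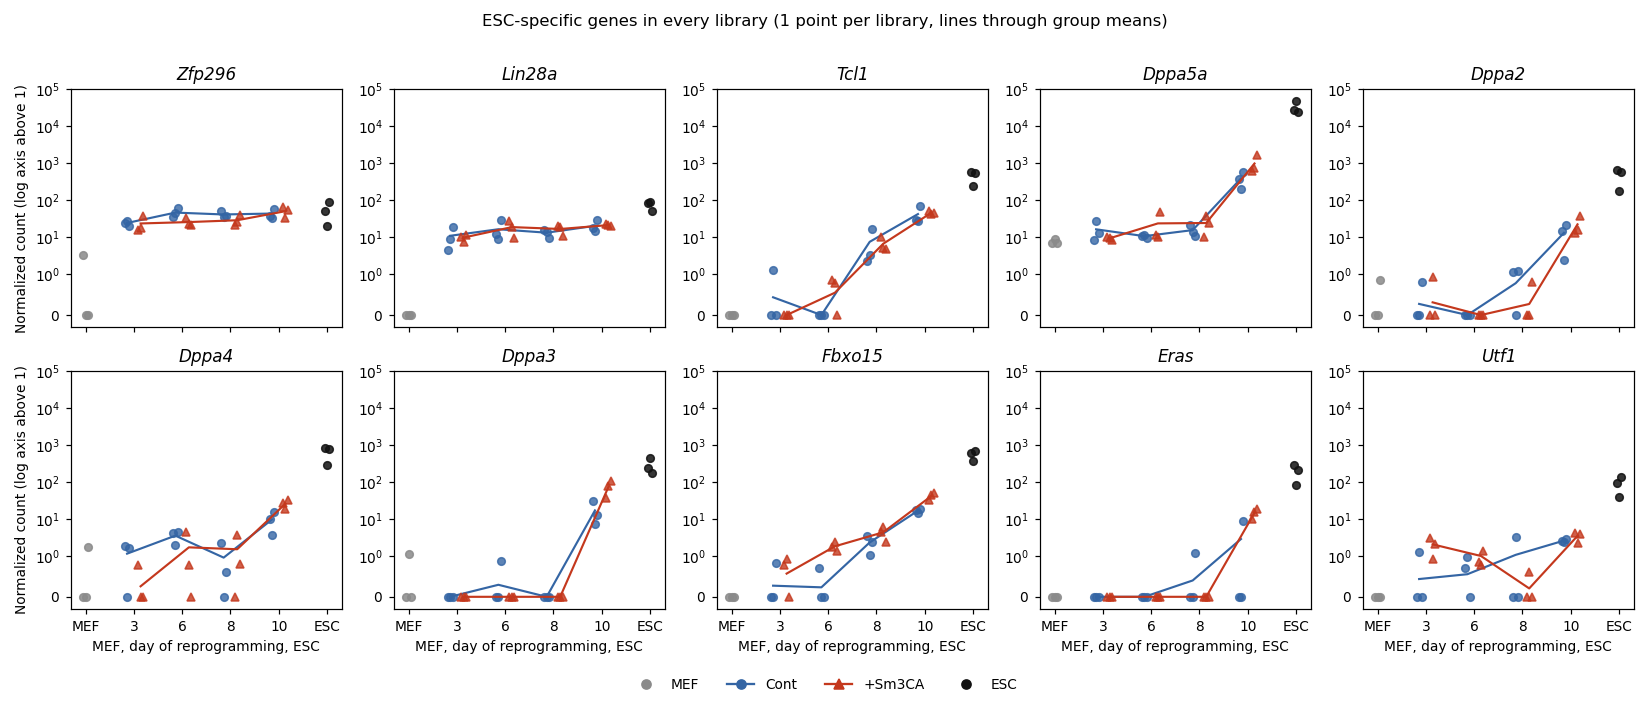
Normalized counts of each gene in all 30 libraries (vertical axis linear up to 1 and logarithmic above, 1 point per library, lines through group means), in MEFs, on days 3, 6, 8 and 10 in Cont (blue circles) and +Sm3CA (red triangles), and in ESCs. Zfp296 and Lin28a are up by day 3, Tcl1 by day 8, and Dppa3 goes from 0 in all 6 day 8 libraries to 7.17 to 105 on day 10, while Utf1 stays at or below 4.21 throughout reprogramming.

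Zfp296 and Lin28a were the early members. Zfp296 (chr7:19577287-19580656, plus strand, GRCm38) had 3.33, 0 and 0 normalized counts in MEFs, 24.1, 27.2 and 20.3 in Cont on day 3 and 15.4, 17.6 and 36.5 in +Sm3CA on day 3. Every day 3 library lay above every MEF library. The day 3 mean was 23.2-fold the MEF mean in Cont (95% exact binomial counting interval 7.63 to 115, from 73 against 3 reads) and 22.0-fold in +Sm3CA (7.24 to 109). From MEFs to day 3, edgeR gave log2 fold changes of 4.50 in Cont (SE 0.70, adjusted p = 1.42e-06) and 4.44 in +Sm3CA (SE 0.71, adjusted p = 1.91e-06). Counting intervals and floors cover counting error only, since reads and not molecules were counted.

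The day 3 libraries of Zfp296 already overlapped with the ESC range, whose low end (19.9) was ESC replicate 2, and lay below the ESC libraries without that replicate (49.3 and 86.2). In Cont it had 33.9, 43.1 and 59.7 normalized counts on day 6, and in +Sm3CA 32.5, 21.7 and 21.6. The arms did not overlap on that day, Cont being higher (log2 fold change of +Sm3CA over Cont -0.82, SE 0.32, unadjusted p = 0.0141, adjusted p = 1.00). On day 10 it had 37.0, 33.5 and 58.4 in Cont and 63.1, 32.8 and 53.4 in +Sm3CA, against 49.3, 19.9 and 86.2 in ESCs. These 3 groups overlapped, and it was the one member not called lower than ESCs on day 10 in either arm (log2 fold change -0.30, SE 0.38, adjusted p = 0.529 in Cont and -0.08, SE 0.38, adjusted p = 0.878 in +Sm3CA). The 5′ ends of Zfp296 and of Gemin7, on the opposite strand, overlap by 309 bases, and whether the counts used strand is not given in the sources used here. Gemin7 was highest in MEFs (59.7 to 76.9 normalized counts), where Zfp296 was 0 to 3.33, and stood at 21.0 to 34.3 in ESCs.

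Lin28a (chr4:134003330-134018841, minus strand) had no read in any MEF library. On day 3 it had 4.46, 9.08 and 18.7 normalized counts in Cont and 9.98, 7.42 and 11.5 in +Sm3CA, so every day 3 library was above every MEF library and the arms overlapped. The day 3 means were at least 3.51-fold (Cont) and 3.14-fold (+Sm3CA) higher than the MEF floor. The test called both steps (adjusted p = 8.72e-06 in Cont and 2.10e-05 in +Sm3CA, edgeR), and they remained called without any 1 of the libraries compared. No later step between neighbouring days passed the test in either arm. From day 3 to day 10 the mean was 1.86-fold higher in Cont, with overlapping libraries, and 2.17-fold higher in +Sm3CA, with every day 10 library above every day 3 library (exact two-sided permutation p = 0.3 and 0.1, the latter being the smallest that 3 libraries against 3 allow). On day 10 Lin28a had 17.3, 14.3 and 28.3 in Cont and 22.4, 20.8 and 19.5 in +Sm3CA. ESC libraries held 83.1, 88.5 and 51.4, all above every day 10 library. The day 10 mean was 26.8% of the ESC mean in Cont and 28.1% in +Sm3CA, or 29.7% and 31.1% without ESC replicate 2.

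Counted over the list, 2 of 10 members were called higher from MEFs to day 3 in Cont, where 22.6% of the 10979 genes tested were, and 3 of 10 in +Sm3CA, where 22.4% were. The additional member in +Sm3CA was Utf1, on 4, 1 and 2 reads against 0 in MEFs (adjusted p = 0.0234), and it lost its call without any 1 of the MEF libraries or without +Sm3CA day 3 replicate 1 (adjusted p up to 0.0868). None was called lower, against 20.9% and 20.7% of all genes. With 9 of 10 members undetected in MEFs, a call lower could hardly be reached. On day 3, 7 members in Cont and 6 in +Sm3CA were undetected as well, so a call higher was hardly possible for those. These counts only describe the members.

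Promoter sequence was available here for 5 of the 10 members (250 bases before to 50 after the RefSeq start, GRCm38.p6), and 4 are printed to set the early Zfp296 and Lin28a beside the later Tcl1 and Eras. Each runs 5′ to 3′ on the strand of the gene and ends before the first annotated transcript base. Capitals mark matches, on either strand, to the 6 motifs searched: ATGCAAA (POU octamer core), ACAAAG and ACAATG (SOX), GGGTGTG (KLF), CAGACA (SMAD) and CACGTG (E-box).
Zfp296, chr7:19577037-19577286, plus strand: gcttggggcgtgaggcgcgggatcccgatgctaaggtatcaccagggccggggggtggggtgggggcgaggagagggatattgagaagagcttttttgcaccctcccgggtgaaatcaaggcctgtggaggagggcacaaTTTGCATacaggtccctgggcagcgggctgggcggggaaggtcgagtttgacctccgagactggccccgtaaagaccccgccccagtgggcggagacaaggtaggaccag
Lin28a, chr4:134018842-134019066, minus strand: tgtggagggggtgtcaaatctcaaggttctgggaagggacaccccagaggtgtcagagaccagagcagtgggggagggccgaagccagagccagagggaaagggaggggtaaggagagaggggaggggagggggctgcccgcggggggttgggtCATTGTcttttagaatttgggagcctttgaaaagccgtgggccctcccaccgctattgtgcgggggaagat
Tcl1, chr12:105222794-105222987, minus strand: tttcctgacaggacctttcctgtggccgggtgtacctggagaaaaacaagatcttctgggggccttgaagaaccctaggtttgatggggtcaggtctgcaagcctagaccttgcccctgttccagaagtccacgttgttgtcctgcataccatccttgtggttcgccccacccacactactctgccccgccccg
Eras, chrX:7928608-7928857, minus strand: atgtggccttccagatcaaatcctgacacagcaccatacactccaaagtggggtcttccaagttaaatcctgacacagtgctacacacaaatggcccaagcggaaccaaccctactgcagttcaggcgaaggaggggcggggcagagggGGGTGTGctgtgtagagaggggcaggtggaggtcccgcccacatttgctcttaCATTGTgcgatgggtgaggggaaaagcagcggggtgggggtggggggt

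The Zfp296 window held the octamer core 110 bases before the start, on the minus strand, and a CACGTG that spans the start and lies beyond the printed bases. Lin28a and Eras each held ACAATG on the minus strand, 96 and 48 bases before the start, and Eras held GGGTGTG 101 bases before it. Among 32851 promoter windows of the same length, 4.63% held ATGCAAA, 12.6% ACAATG, 7.95% GGGTGTG and 7.15% CACGTG. The Tcl1 and Utf1 windows held none of the 6, and CAGACA, present in 21.0% of all windows, was in none of the 5. The matches are descriptions of sequence and not evidence of binding.

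Tcl1 (chr12:105216750-105222793, minus strand) was next. It was undetected through day 6 in both series. On day 8 it had 2.26, 3.17 and 16.7 normalized counts in Cont (2, 3 and 28 reads) and 9.89, 4.90 and 4.84 in +Sm3CA (16, 8 and 6 reads). Most of the Cont signal thus came from replicate 3, whereas the +Sm3CA libraries all held more than 3 reads. From day 6 to day 8 the fitted log2 fold change was 6.22 in Cont (SE 1.24, adjusted p = 0.00323) and 3.18 in +Sm3CA (SE 0.93, adjusted p = 0.0310). Since Tcl1 had no read in Cont on day 6, that fit is no bound, and the ratio to the floor was at least 2.92-fold. Tcl1 was the 1 member of 9 called in this interval in each series, against 1.4% of 10237 genes higher in Cont and 2.98% in +Sm3CA. None was called lower (0.293% and 3.7% of genes). Of the 9, 5 (Dppa2, Dppa3, Eras, Fbxo15 and Tcl1) had 3 reads or fewer in every library of day 6, so a call lower was hardly possible for them. From day 3 to day 6, 0 of 9 members were called in either direction by edgeR or DESeq2, where 4.91% of genes were higher and 4.21% lower in Cont and 9.62% and 8.97% in +Sm3CA. The same 5 members had 3 reads or fewer in every library of day 3 too, and could hardly be called in this step. At an unadjusted p under 0.05 there was 1 member in each series, Zfp296 in Cont and Lin28a in +Sm3CA, both upward. Without Cont day 8 replicate 3 the Cont step lost its call (adjusted p = 0.173), and in +Sm3CA the call was lost when any of 5 of the 6 libraries was left out (adjusted p up to 0.128).

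By day 10 Tcl1 had 28.4, 27.5 and 68.8 normalized counts in Cont and 49.1, 42.6 and 44.3 in +Sm3CA. Every day 10 library lay above every day 8 library of its series, and the +Sm3CA values lay within the range of the Cont values. The rise from day 8 was 5.63-fold in Cont (log2 fold change 2.31, SE 0.50, adjusted p = 0.00637) and 6.92-fold in +Sm3CA (2.76, SE 0.51, adjusted p = 0.000999). In Cont the call was lost without day 10 replicate 3 (adjusted p = 0.162) or without day 8 replicate 1 (0.0658) or 2 (0.0651). ESC libraries had 580, 235 and 520, and day 10 stood at 9.34% (Cont) and 10.2% (+Sm3CA) of the ESC mean.

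Between days 8 and 10, 6 of the 9 members tested were called higher in Cont, where 1.58% of 10237 genes were, and 7 of 9 in +Sm3CA, where 2.43% were. None was called lower, against 0.821% and 2.42%. The members called in Cont were Dppa2, Dppa3, Dppa4, Dppa5a, Fbxo15 and Tcl1, and Eras was added in +Sm3CA. DESeq2 called 3 in each series. The Cont count changed with single libraries. It was 3 of 9 when Cont day 8 replicate 1 or 2 or Cont day 10 replicate 3 was left out, while the +Sm3CA count was 7 or 8 of 9 whichever library was left out. Utf1 did not pass the filter on low counts and was not tested in these fits. Dppa2, Dppa3, Dppa4 and Eras had at most 6 reads in any reprogramming library before day 10. They passed the filter through day 10 libraries, so a rise to day 10 was nearly set in advance for them. Fbxo15, with at most 10 reads in any earlier reprogramming library, and Tcl1 also needed day 10 libraries to pass, which favoured a rise. The counts called in this step only describe the members.

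Dppa2 and Dppa4 lie side by side on chromosome 16 in the same orientation, 9.7 kb apart (Dppa4 chr16:48283733-48294237, Dppa2 chr16:48303908-48319723). Dppa2 had at most 2 reads in any library through day 8. On day 10 it had 14.8, 2.39 and 21.7 normalized counts in Cont and 12.6, 15.3 and 37.8 in +Sm3CA. All 6 values were above every day 8 library, and the arms overlapped. The rise from day 8 was 16.0-fold in Cont (counting interval 5.06 to 81.0, from 37 against 3 reads) and 97.4-fold in +Sm3CA (16.7 to 3920, from 52 against 1 read). It was called in both arms (adjusted p = 0.0165 and 0.000287), and in Cont the call was lost without any 1 of the day 8 libraries or without day 10 replicate 3 (adjusted p from 0.0550 to 0.174). The levels were still 2.86% and 4.83% of the ESC mean, where the libraries held 628, 179 and 554.

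Dppa4 differed from its neighbour in having a few reads earlier. On day 6 it had 4.15, 1.91 and 4.39 normalized counts in Cont and 4.27, 0.776 and 0 in +Sm3CA, from 13 and 6 reads, and on day 8 it had 3 and 7 reads in all. None of these steps was called. On day 10 it had 9.88, 3.58 and 15.1 in Cont and 26.6, 18.6 and 31.3 in +Sm3CA. Here the arms separated, the lowest +Sm3CA library standing above the highest Cont library, at a 2.68-fold ratio of means (log2 fold change 1.39, SE 0.64, unadjusted p = 0.0351, adjusted p = 0.263). The rise from day 8 was called in Cont at adjusted p = 0.0442 and in +Sm3CA at 0.00113. In Cont the call was lost when any of 5 of the 6 libraries was left out (adjusted p up to 0.270). Against ESCs (841, 275 and 774) the day 10 shares were 1.51% in Cont and 4.05% in +Sm3CA. Morc1, the next gene downstream on this strand, had 2.47, 4.78 and 7.54 in Cont and 9.11 to 14.0 in +Sm3CA on day 10, against 127 to 158 in ESCs.

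Dppa3 (chr6:122626410-122630272, plus strand) came on between days 8 and 10 from no reads at all. No read was counted in any of the 6 libraries of day 8, and the floor of 3 reads per library there corresponds to 1.00% of the ESC level in Cont and 0.734% in +Sm3CA. On day 10 it had 30.9, 7.17 and 12.2 normalized counts in Cont and 36.4, 76.5 and 105 in +Sm3CA. Every +Sm3CA library was above every Cont library. Relative to the day 8 floor the level was at least 6.02-fold higher in Cont and 35.7-fold higher in +Sm3CA, and edgeR called both (adjusted p = 0.000495 and 1.89e-07). The ratio between the arms on day 10 was 4.34-fold (log2 fold change 2.14, SE 0.51, adjusted p = 0.0122). ESC libraries had 228, 435 and 170, so the +Sm3CA mean stood at 26.2% of ESCs and the Cont mean at 6.03%. Because replicate 2 was the highest ESC library for this gene, the shares without it were 36.6% and 8.42%.

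The call of Dppa3 between the arms was not stable. It was lost without Cont day 10 replicate 2 (adjusted p = 0.0998), Cont day 10 replicate 3 (0.0861), +Sm3CA day 10 replicate 2 (0.0766) or +Sm3CA day 10 replicate 3 (0.165), while the log2 fold change stayed between 1.80 and 2.91. DESeq2's Wald test gave adjusted p = 0.825, and over all settings the adjusted p of Dppa3 ran from 0.00027 to 0.825. The rise from day 8 to day 10 likewise missed the threshold with DESeq2 (adjusted p = 0.356 in Cont and 0.0655 in +Sm3CA).

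Dppa3 lies in a cluster with other genes of pluripotent cells, and the values of its neighbours are given beside it, with no test between their courses. Gdf3, a TGF-beta family ligand 16.3 kb away, already had 4.18 to 7.92 normalized counts in Cont and 2.45 to 20.2 in +Sm3CA on day 8, and 28.7 to 48.1 and 73.2 to 105 on day 10. Its libraries did not overlap between the arms on day 10 (log2 fold change 1.24, SE 0.41, adjusted p = 0.0856). Nanog, 77.2 kb away, had 3 reads in Cont and 24 in +Sm3CA on day 8, where Dppa3 had none in either. It had 22.2, 10.8 and 17.0 in Cont and 26.6, 19.7 and 9.11 normalized counts in +Sm3CA on day 10, with overlapping arms, and its Cont mean of 16.6 was close to that of Dppa3 (16.8). Slc2a3, a glucose transporter 97.5 kb away, had 5.55, 8.68 and 3.46 normalized counts in MEFs already and means of 113 in Cont and 148 in +Sm3CA on day 10. These neighbours were named for their position.

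Dppa5a (chr9:78367052-78368177, minus strand) had a low background in every group, with 6 to 8 reads per library in MEFs. On day 8 it had 21.5, 13.7 and 10.7 normalized counts in Cont and 9.89, 37.4 and 24.2 in +Sm3CA, and some +Sm3CA libraries of days 6 and 8 stood above the rest (48.6 and 37.4). By day 10 the values were 362, 202 and 580 in Cont and 589, 709 and 1606 in +Sm3CA. The step was 24.9-fold in Cont (log2 fold change 4.71, SE 0.44, adjusted p = 5.97e-09) and 40.6-fold in +Sm3CA (5.34, SE 0.41, adjusted p = 1.20e-11). Of the 9 members tested it had the lowest adjusted p for this step in each series, and it was called under all settings tried. In percent of all reads it went from 0.0248, 0.0148 and 0.0429 in the Cont libraries of day 10 to 0.0416, 0.0481 and 0.122 in +Sm3CA, and to above 1 in ESCs. Hence the day 10 mean was only 1.16% (Cont) and 2.95% (+Sm3CA) of the ESC mean, or 1.52% and 3.87% without ESC replicate 2. The difference between the arms lost its call without Cont day 10 replicate 2 (adjusted p = 0.121), without +Sm3CA day 10 replicate 3 (0.262) and with DESeq2 (0.229). Ooep, which codes for an oocyte and embryo protein and lies 7.9 kb away on the same strand, had 6.17, 0 and 3.77 normalized counts in Cont and 4.21, 7.65 and 32.6 in +Sm3CA on day 10, against 350 to 654 in ESCs.

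Fbxo15 had small counts before its day 10 rise. It had 3.40, 1.06 and 2.39 normalized counts in Cont on day 8 and 4.33, 6.13 and 2.42 in +Sm3CA. On day 10 it had 17.3, 14.3 and 17.9 in Cont and 32.2, 43.7 and 48.2 in +Sm3CA, with an SD of 1.91 in Cont and 8.22 in +Sm3CA. The arms did not overlap, at a ratio of 2.51. That difference did not pass in the fit of 24 libraries (log2 fold change 1.33, SE 0.45, adjusted p = 0.0937) and passed when all 30 libraries were fitted together (0.0145), when the day 10 libraries were fitted alone (0.0152) and with the first well of each replicate (0.0195). The rise from day 8 was 7.24-fold in Cont and 9.64-fold in +Sm3CA (adjusted p = 0.00415 and 7.58e-05). Fbxo15 stood at 3.06% and 7.68% of the ESC mean. Timm21 lies within Fbxo15 on the opposite strand, and the strand use of the counts is not given. Timm21 moved differently, with 61.9 to 94.4 normalized counts in MEFs, where Fbxo15 had no read.

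Eras (chrX:7924276-7928607, minus strand) had no read in MEFs or through day 8, apart from 2 reads in 1 Cont library of day 8. ESC libraries had 308, 46 and 157 reads. On day 10 the Cont libraries had 0, 0 and 9 reads and the +Sm3CA libraries 7, 14 and 14, or 9.81, 15.3 and 18.2 normalized counts. The 3 +Sm3CA libraries were all above the 1 positive Cont library (8.48). The ratio of means was 5.11-fold (log2 fold change 2.18, SE 0.89, unadjusted p = 0.0206, adjusted p = 0.201), and without Cont day 10 replicate 3, which held all Cont reads, the adjusted p was 0.0387. The rise from day 8 in +Sm3CA was at least 7.09-fold (adjusted p = 0.00287), while that in Cont was not called (adjusted p = 0.444) and changed sign without replicate 3 of day 10. The difference between these steps was not tested. In +Sm3CA Eras stood at 7.65% of the ESC mean, and in Cont at 1.50%, below the 1.79% that 3 reads per library represent.

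Utf1 (chr7:139943789-139945112, plus strand) was the one member undetected on day 10 in both arms. It had 2, 2 and 3 reads in Cont and 3, 2 and 3 in +Sm3CA, and the floor there corresponds to 3.86% and 4.34% of the ESC level. ESC libraries had 102, 21 and 102 reads, so this gene was also the one whose low ESC counts left the widest floor among the late members. No difference between arms was detectable at this depth.

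The arms were compared day by day, with few reads for most members before day 10. At the first 3 collection times, days 3, 6 and 8, 0 of 9 members were called in either direction by edgeR (0.0195% of 10237 genes called higher and 0% lower on day 3, 0.00977% and 0% on day 6, 0.381% and 0.654% on day 8). At an unadjusted p under 0.05 there were 0, 2 and 0 members, the 2 of day 6 being Fbxo15 (log2 fold change 2.36) and Zfp296 (-0.82). DESeq2 also called 0 on each of these days. Of the 9 members tested, 6 on day 3, 5 on day 6 and 3 on day 8 (Dppa2, Dppa3 and Eras on all of these days) had 3 reads or fewer in every library of both arms. They passed the filter through later libraries, and a difference between the arms could not be detected for them at this depth. On day 6 the libraries separated for 1 member upward (Fbxo15) and 1 downward (Zfp296), as they did for 5.14% and 6.41% of all genes. On day 3 (5.66% of genes higher, 5.92% lower) and day 8 (7.57% and 8.35%) they separated for 0 members. On day 10, 2 of 9 members were called higher, where 0.83% of all genes were, and 0 lower, where 2.74% were. All 9 fold changes were above 0, beside 49.6% of all genes, and their median on the log2 scale was 1.33, where that of all genes was -0.01. These values only describe the members that passed the filter, of which Dppa2, Dppa3, Dppa4 and Eras had at most 6 reads in any reprogramming library before day 10. In 5 members (Dppa3, Dppa4, Dppa5a, Fbxo15 and Eras) every +Sm3CA library was above every Cont library, which held for 8.78% of all genes, and in 0 members was every +Sm3CA library lower (11.9%). With 3 libraries against 3 an exact permutation test cannot go below p = 0.1, the value it gave for each of these 5. DESeq2 called 0 of the 6 members to which it gave an adjusted p, and 2 had an unadjusted p under 0.05.

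For the members that came on first, no difference between the arms was detectable on day 10. Lin28a differed by a log2 fold change of 0.06 (SE 0.44), Tcl1 by 0.12 (SE 0.45) and Zfp296 by 0.20 (SE 0.31), each with overlapping libraries. This does not show that the arms were equal for these genes. Dppa2 was higher in +Sm3CA by 0.74 (SE 0.64), also with overlapping libraries. For Lin28a and Tcl1 the sign changed when Cont day 10 replicate 1 or 2 was left out, down to -0.12 and -0.09. The change of the arm difference from day 3 to day 10 was called for 0 of 9 members by edgeR (0.107% of all genes higher and 0.899% lower) and for 0 by DESeq2, with the same lack of day 3 reads for 6 members. At an unadjusted p under 0.05 there was 1, Dppa5a (2.05, SE 0.73, adjusted p = 0.193).

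**Figure D3:**
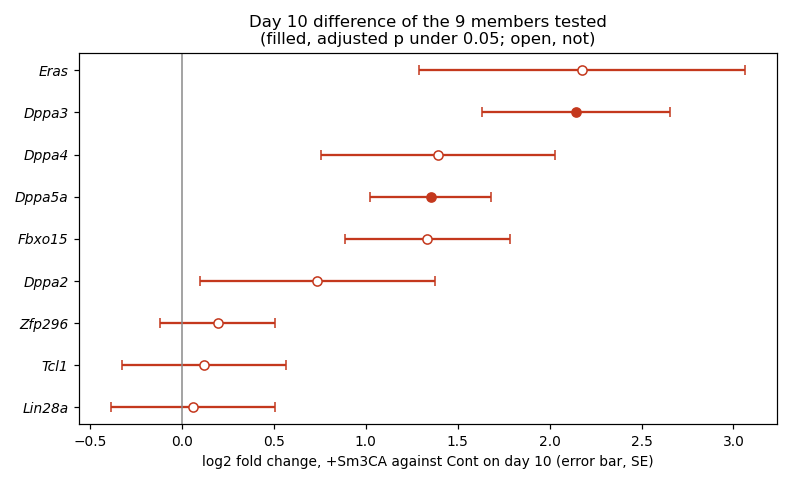
log2 fold change of +Sm3CA over Cont on day 10 for the 9 members that passed the filter on low counts (edgeR, fit of 24 libraries; error bars are standard errors). All 9 lie above 0, from 0.06 for Lin28a to 2.18 for Eras, and filled points mark Dppa3 and Dppa5a, the members with an adjusted p under 0.05.

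Replicates of day 10 differed in a shared way over the members. In Cont, replicate 3 was the highest of the 3 libraries for 9 of 10 members and replicate 2 the lowest for 9. In +Sm3CA, replicate 3 was the highest for 6, namely Dppa2, Dppa3, Dppa4, Dppa5a, Fbxo15 and Eras. The members are thus not independent readings of a library. Markers of other cell types differed between the arms on the same day. Of all genes tested, 2.74% were called lower in +Sm3CA and 0.83% higher. Of 15 fibroblast markers 6 were called lower in +Sm3CA and 0 higher, and their summed level was 1428 to 1803 normalized counts in +Sm3CA and 1549 to 3261 in Cont, against 5295 to 6973 in MEFs and 15.5 to 39.7 in ESCs. Postn (52.3 ± 19.6 against 170 ± 66.8), S100a4 (123 ± 18.3 against 367 ± 174) and Col1a1 (74.4 ± 6.80 against 182 ± 79.7; all SD, n = 3) were examples. Of 5 keratinocyte markers tested 2 were lower, Krt14 (125 ± 66.6 against 381 ± 45.1) and Krt6a (171 ± 65.0 against 438 ± 84.3), and the sum of the 8 listed was 186 to 463 in +Sm3CA and 726 to 976 in Cont. Of 8 neural and glial markers tested 3 were higher, with overlapping sums of 2333 to 4388 and 2754 to 3112. On day 8, 4 of these 8 had been called lower in +Sm3CA and 0 higher. The part of these cell types in the day 10 differences of the members was not tested.

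As a share of the ESC level, the 10 members had a median of 3.00% in Cont and 7.66% in +Sm3CA on day 10, or 2.47% and 6.31% without ESC replicate 2. The range was 1.16% (Dppa5a) to 83.0% (Zfp296) in Cont and 2.95% (Dppa5a) to 96.1% (Zfp296) in +Sm3CA. On day 8 the medians were 0.317% and 0.235%, and on day 3 0.0785% and 0.0544%. In Cont 2 members, Zfp296 and Lin28a, were at 10% or more on every day from day 3 to day 10, and in +Sm3CA Tcl1 and Dppa3 joined them on day 10. Tcl1 did so narrowly, at 10.2%, and was at 8.24% without ESC replicate 2. Without that library Zfp296 stood at 63.4% in Cont and 73.4% in +Sm3CA. Dppa2 stood at 2.19% and 3.70%, Dppa4 at 1.18% and 3.16%, Fbxo15 at 2.65% and 6.64%, and Eras at 1.17% and 5.98%. More than 3 reads in every library were found for 3 members in Cont on days 3, 6 and 8 and for 6 on day 10, and in +Sm3CA for 3 on days 3 and 6, 4 on day 8 and 9 on day 10.

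**Figure D4:**
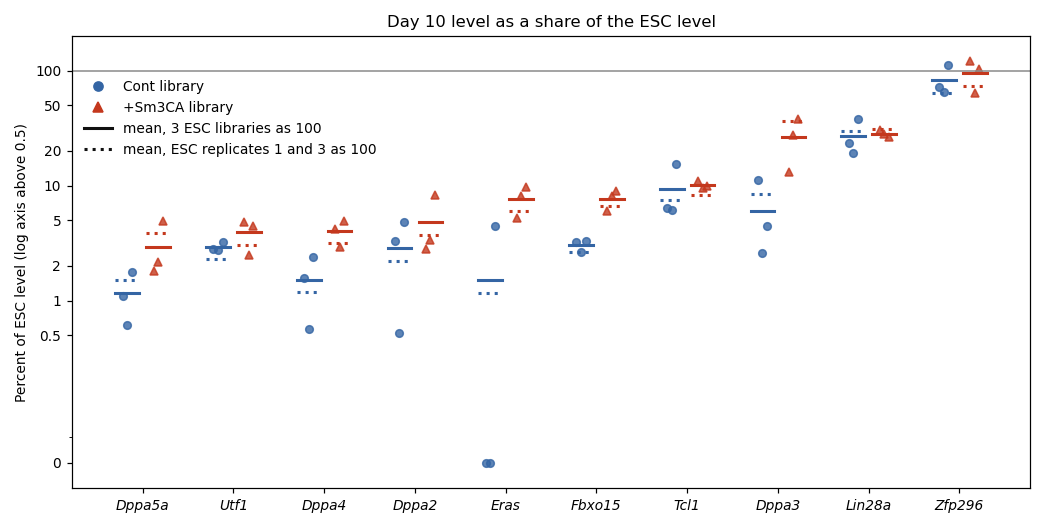
Day 10 level of each gene as a percent of its ESC level (vertical axis linear up to 0.5 and logarithmic above), for Cont (blue circles) and +Sm3CA libraries (red triangles); solid bars are group means with all 3 ESC libraries as 100 and dotted bars with ESC replicates 1 and 3 as 100. Zfp296 lies between 63.3% and 122%, Lin28a between 19.3% and 38.0%, and most others below 10%, with Dppa3 in +Sm3CA at 13.1% to 38.0%.

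Compared with ESCs, 9 of 10 members were called lower on day 10 in Cont, where 21.5% of 10979 genes were, and 9 of 10 in +Sm3CA, where 18.6% were, and 0 were called higher (30.3% and 27.2% of all genes). Zfp296 was the exception in both. The members were chosen as genes abundant in ESCs, and Utf1 entered this fit through ESC libraries. A call lower than ESCs was therefore largely set in advance, and these counts only describe the members. Both counts were 9 when any library, ESC replicate 2 included, was left out. DESeq2 called 8 in each arm, without Eras (adjusted p = 0.288 in Cont and 0.545 in +Sm3CA). The ESC mean was 86.1-fold the Cont mean for Dppa5a and 66.2-fold for Dppa4, and 10.7-fold for Tcl1 and 3.72-fold for Lin28a. Against +Sm3CA it was 33.9-fold for Dppa5a, 24.7-fold for Dppa4, 3.82-fold for Dppa3 and 3.56-fold for Lin28a. These fold values share the same ESC libraries.

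Genes related to the members by function were counted on day 10 in the same way. Beside them, 0.83% of all genes were called higher in +Sm3CA and 2.74% lower. Of 12 naive and core pluripotency factors 7 were tested on day 10, 2 were higher in +Sm3CA and 0 lower, with a median log2 fold change of 0.87. Those called were Zfp42 (238 ± 62.6 against 117 ± 42.5 normalized counts) and Tfcp2l1 (72.1 ± 26.4 against 27.2 ± 14.1). Of 18 other ESC-associated transcripts 11 were tested, with 1 higher, L1td1, which codes for an RNA-binding protein (154 ± 27.1 against 89.8 ± 21.6), and 1 lower, Ifitm3, an interferon-induced membrane protein (754 ± 72.0 against 2815 ± 373). The median of this list was 0.41. The study picked out pluripotency genes on these same samples, among them Dppa4, Dppa5a, Eras, Lin28a and Fbxo15 of the members, so the direction of these groups is not independent evidence.

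Of 12 genes of the LIN28 and let-7 axis 10 were tested and 1 was higher, Hmga2, a chromatin protein and let-7 target (205 ± 4.72 against 116 ± 8.02 normalized counts, 586 in MEFs and 15.5 in ESCs). Lin28b, the paralog of Lin28a, had a log2 fold change of 1.04 (SE 0.39, adjusted p = 0.149). Of 10 partners of ERAS, TCL1 and FBXO15 (AKT and PI3K kinases and core subunits of the SCF ubiquitin ligase) 9 were tested and 0 were called in either direction on day 10, with a median of 0.15. They were already abundant in MEFs, at a summed level of 1728 to 2329 normalized counts against 2546 to 3548 in ESCs. Of the 14 counted genes listed as genomic neighbours of members 11 were tested and 0 were called. That list includes Khdc3, which is on the chromosome of Dppa5a but 5262.6 kb away.

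The 2-cell-like genes described downstream of DPPA2 and DPPA4 stayed low. Of 9 counted, 1 could be tested and it was not called, and the sum of the list was 0 to 5.97 normalized counts in Cont and 2.60 to 36.0 in +Sm3CA on day 10, against 219 to 339 in ESCs. The libraries of the arms overlapped. Of 10 oocyte and germ cell genes 2 were tested and 0 were called, at sums of 27.5 to 32.1 and 28.0 to 51.3, against 406 to 473 in ESCs. Trophoblast (2 tested) and primitive endoderm markers (3 tested) had 0 calls by edgeR, at sums of 24.7 to 36.4 and 19.6 to 26.2 in +Sm3CA and of 14.3 to 28.4 and 46.9 to 53.8 in Cont.

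The course of the 9 members that passed the filter was compared with that of other genes by the root mean squared difference of log2 share of ESCs over the 8 reprogramming groups, with a pseudocount of 1. For members with few reads before day 10 the measure rests largely on that pseudocount and on the ESC level. Among 3619 other genes with an ESC mean of at least 50 normalized counts, Ooep was the closest to both Dppa2 (0.88) and Dppa4 (0.74), and Mylpf to both Dppa3 (0.87) and Fbxo15 (0.82). Nanog was the closest to Tcl1 (0.99), Trap1a to Dppa5a (1.86) and Zfp936 to Eras (0.65). Lin28a (2810474O19Rik, 0.21) and Zfp296 (Med7, 0.24) were closest to genes that MEFs also expressed, at 88.7 and 71.6 normalized counts, since the measure covers reprogramming groups and not MEFs. All 8 groups entered each comparison, and the values describe likeness of course only.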

How the data were processed

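The authors sequenced STRT libraries of 84 wells and deposited raw read counts per gene. Per the submitters' processing notes the tools were Bowtie 0.12.9 and DESeq2 1.6.3 with the mm10 genome, and strand use in counting is not given in the sources used here. The deposited counts are of reads, not of molecules, so amplification can inflate low values. Wells of a replicate (3, or 2 on day 10) were summed as in the study, which gave 30 libraries (median 1602511 reads). No 2 libraries of a group were identical (0 of 30 pairs). Levels are counts divided by DESeq2 size factors (DESeq2 1.42.0, R 4.3.3).

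Tests used edgeR 4.0.16 (glmQLFit and glmQLFTest, TMM scaling, filterByExpr, Benjamini-Hochberg adjusted p under 0.05). Fits covered the 24 reprogramming libraries (10237 genes), all 30 (10979 genes, for MEF to day 3 and day 10 against ESC), or ESC and MEF alone (8798 genes). On simulated counts for 10237 genes with 200 changed 4-fold, edgeR called 173 in the right direction with 6 false calls. The changed genes were drawn only from those with higher mean counts, and a single spread between replicates was set for all genes. This recovery therefore does not describe members with few reads. Exact permutation tests were two-sided. The members and gene lists were chosen with earlier results of these data known. Named genes were the 10 members, Smad3, at most 3 called genes of each other list (largest change, libraries not overlapping) and the genes nearest to a member by course. Genomic neighbours, Lin28b and Gapdh are outside that rule and were named after their values were seen.

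The design pairs replicate numbers over days within a series. Deviations from group means of same-numbered libraries correlated at -0.09 to 0.14 between days of a series (18 pairs), and the pairing comes from the design text. Alternatives were another scaling, no filter, the first well, DESeq2, a replicate block, other sets of libraries, and leaving out each library. Gene positions are from GENCODE M21 (GRCm38).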

Additional observations from a re-analysis of the deposited data

How the results depend on the processing

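Across the main results, 106 of 124 alternative values other than leave-outs equalled the main value or were close to it in ratio. All but 13 of 114 leave-outs did so too. These include counts of 0 against 0 for the arms on days 3, 6 and 8, when many members had few reads. For single genes, 166 of 179 and 142 of 174 stayed on the same side and within range. On day 10, +Sm3CA against Cont called 0 members with DESeq2's Wald test and 0 at an adjusted p under 0.01, and 0 to 2 without single libraries. With the replicate block the same comparison called 2 members, Dppa3 (adjusted p = 0.0211) and Dppa5a (adjusted p = 0.00521), and the block changed no count of members called. The change of the arm difference from day 3 to day 10 called 1 member with no filter. From day 3 to day 6, 1 member was called in Cont with no filter and 1 with only the compared libraries (0 to 1 in leave-outs), and 1 in +Sm3CA with no filter. From day 6 to day 8 the Cont count was 0 with only the compared libraries (0 to 1 in leave-outs), and the +Sm3CA count was 0 with the first well, DESeq2, all 30 libraries, only the compared libraries or a threshold of 0.01 (0 to 1 in leave-outs). From day 8 to day 10 the Cont count was 3 with the first well, DESeq2 or only the compared libraries (3 to 6 in leave-outs). The +Sm3CA count was 4 with the first well and 3 with DESeq2 (7 to 8 in leave-outs). On day 10 against ESC, DESeq2 called 8 members in each arm. With only the compared libraries fewer genes passed the filter, and the cause of the other changes was not tested.

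The median share of ESC in +Sm3CA on day 10 was 10.0% with CPM without scaling (6.31% to 9.09% in leave-outs), and in Cont 2.47% to 3.68% in leave-outs. The day 10 sign of Lin28a was negative with the first well (-0.17) and its leave-out range was -0.12 to 0.43. The range of Tcl1 was -0.094 (without Cont day 10 replicate 2) to 0.73. From day 8 to day 10 in Cont, Eras ran from -2.52 to 4.78 and Zfp296 from -0.21 to 0.26, both lowest without Cont day 10 replicate 3. Depth limits Utf1 and every value under 3 reads per library.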
